A study of Mus musculus with 2 samples.

Results

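Glycolysis splits glucose into pyruvate in the cytosol. In its first part glucose is phosphorylated, rearranged and cut into triose phosphates, and in its second part the triose phosphates are oxidised and yield ATP. Glyceraldehyde-3-phosphate dehydrogenase, encoded by Gapdh, performs the oxidation that opens the second part. In beta cells the flux through this pathway couples blood glucose to ATP and so to insulin secretion, and Gapdh is also one of the transcripts most often used as a reference in PCR.

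The transcripts of Gapdh and of the enzymes before and after it in the pathway were examined in RNA-seq of MIN6 cells. MIN6 is a mouse insulinoma line that makes and secretes insulin, and its strain is given as C57BL/6. The study compared the transcripts of these cells with and without a plasmid for the glucocorticoid receptor (GR, gene Nr3c1), a hormone-activated transcription factor. The design had 1 library of cells given a control vector and 1 library of cells given an expression vector that carries GR cDNA. Cells of both groups grew in 25 mM glucose with 15% serum, HEPES, pyruvate, antibiotics and beta-mercaptoethanol, and each 3.5 cm dish was transfected with 4.8 ul of Lipofectamine 2000 and 4 ug of plasmid. Transfection with such a reagent is transient and need not reach every cell. The sources used here do not give the promoter of the vector, the species of the cDNA, the hours until harvest or whether a glucocorticoid was added.

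The members are the rows of the deposited all-gene table that carry 1 of 10 symbols: Gpi1, Pfkl, Pfkm, Pfkp, Aldoa, Tpi1, Gapdh, Pgk1, Pgam1 and Eno1. They came to 11 rows of 21542, because Aldoa occurs under 2 identifiers. Gapdh was chosen by its reads and its fold in these same 2 libraries, and the other members for their place in the pathway, so the values of Gapdh below are a description with no test of their own. With 1 library per group no difference has a replicate check, and intervals cover counting error only. In a bulk culture a change in the number of cells that express a gene cannot be told apart from a change in RNA per cell.

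The libraries were of nearly equal depth, with 18537326 reads over genes (control vector) and 18525668 (GR vector). Nr3c1, the targeted gene, had 2645 and 5202 reads (control vector first, as in all pairs of reads below), a fold of 1.97 (95% interval 1.88 to 2.07). The authors' deposited table lists it with an adjusted p of 1. The cells are labelled as insulinoma cells, a tumour of beta cells, and all 10 beta cell markers listed had at least 100 reads in each library, from Ucn3 (159 and 145 reads) to Ins2 (407986 and 373033). Of 6 markers listed for alpha, delta and PP cells, 3 had a row. These summed to 638 and 746 reads, mostly glucagon (Gcg, 537 and 623 reads). Of 6 exocrine markers listed, 1 had a row, with 7 and 13 reads. Fibroblast and endothelial markers (3 of 5 with a row) summed to 70 and 76 reads, and immune markers (2 of 4) to 26 and 22.

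Gapdh (ENSMUSG00000057666, chromosome 6, 125161715 to 125166467, minus strand) had 206 reads in the library of the control vector and 3439 in that of the GR vector. It was low with the control vector and high with the GR vector, a gain of 3233 reads and a fold of 16.7 (95% interval 14.5 to 19.4). Its share of all reads went from 0.00111% (exact 95% interval 0.000965 to 0.00127) to 0.0186% (0.0179 to 0.0192). By number of reads it was the 9842nd gene of the control library and the 1106th of the GR library. The authors' deposited table gives it a log2 fold change of 4.06, an adjusted p of 1.57e-13 and the lowest p-value of all genes. Of all genes tested there, 0.0186% passed an adjusted p under 0.05 in either direction and 0.00928% passed it as higher. Those deposited p-values are matched by an exact test with a preset dispersion of 0.04, so they rest on an assumed spread and not on replicates. With a preset dispersion of 0.16 in edgeR's exact test, the adjusted p of Gapdh was 0.368 and the call was lost.

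None of the other 9 enzymes stood apart in this way. All 11 rows averaged 100 reads or more over both libraries. Gapdh was the 1 row past 1.2-fold, a fold that 5.04% of the 11070 genes averaging 100 reads or more passed in either direction and 2.68% passed as higher; 0.28% passed 1.5-fold. Of the 4867 genes averaging 1000 reads or more, which hold every row but the second Aldoa row, 0.288% passed 1.2-fold. The middle 95% of those genes lay between folds of 0.904 and 1.12, and all 9 other well-read rows lay in that range. Without Gapdh the 10 remaining rows had a median log2 fold of 0.04, beside 0.0042 over all genes averaging 100 reads or more, with 8 rows above 0 and 2 below. In the authors' deposited table each of these 10 rows had an adjusted p of 1.

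**Figure D1:**
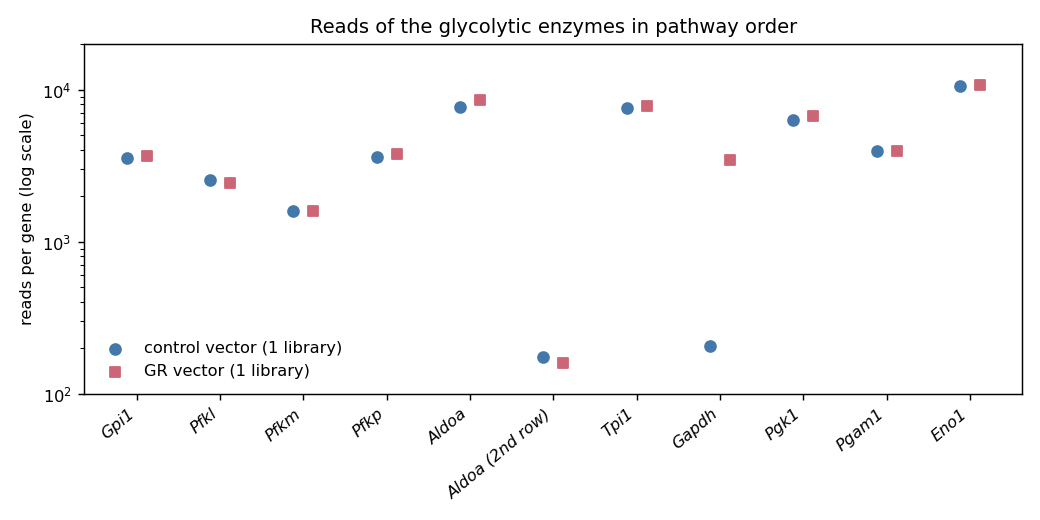
Reads per gene (log axis) of the 11 rows in the order of the pathway, as circles for the control vector and squares for the GR vector, 1 library each. Gapdh goes from 206 to 3439 reads, while the 2 points of every other row lie close together.

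The enzymes that prepare the hexose had nearly the same reads in both libraries. Gpi1, the isomerase that turns glucose 6-phosphate into fructose 6-phosphate (chromosome 7, 34201330 to 34230336), had 3529 and 3690 reads, a fold of 1.05 (95% interval 1.00 to 1.10). The next step, the committed phosphorylation by phosphofructokinase, has 3 subunit genes named for liver, muscle and platelet. Pfkl had 2542 and 2418 reads (fold 0.954, 0.902 to 1.01). Pfkm had 1583 and 1593 reads (fold 1.01, 0.941 to 1.08). Pfkp had 3596 and 3749 reads (fold 1.05, 0.999 to 1.09). The interval of each of the 3 genes included 1.

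The shares of the 3 phosphofructokinase genes differed by little between the libraries, and a difference between their folds was not tested. Of the reads of the 3 genes, Pfkp took 46.6% (exact 95% interval 45.5 to 47.7) and 48.3% (47.2 to 49.4). Pfkl took 32.9% (31.9 to 34.0) and 31.2% (30.1 to 32.2), and Pfkm 20.5% in each. Which gene led depended on the length used: the deposited length of Pfkp is 13401 bases, while its principal mRNA has 4145. Per kilobase of deposited length Pfkm led with 474 reads in the control library and Pfkp was last with 268. Per kilobase of principal mRNA Pfkp led with 868 and Pfkm was last with 550.

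Aldolase and triose phosphate isomerase, which cut the hexose and interconvert the pieces, also differed little between the libraries. Aldoa (ENSMUSG00000030695, chromosome 7, 126795234 to 126800751) had 7752 and 8525 reads, a fold of 1.10 (95% interval 1.07 to 1.14), the highest fold of the 10 rows other than Gapdh. Its second row (ENSMUSG00000114515, 126800790 to 126809108), a separate gene model just upstream, had 175 and 159 reads (fold 0.911, 0.730 to 1.14), with an interval that included 1. Aldoa took 97.6% and 97.7% of the reads of the aldolase genes, with Aldoc at 2.22% and 2.23%. Tpi1, on the same chromosome as Gapdh (chromosome 6, 124810586 to 124814296), had 7605 and 7853 reads (fold 1.04, 1.00 to 1.07).

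Downstream of Gapdh the reads were again close. Pgk1, the kinase that makes the first ATP of the second part (chromosome X, 106187100 to 106203699), had 6362 and 6761 reads (fold 1.07, 95% interval 1.03 to 1.10). Pgam1, the mutase that moves the phosphate on 3-phosphoglycerate (chromosome 19, 41911871 to 41918664), had 3961 and 3956 reads (fold 1.00, 0.958 to 1.05). Eno1, the enolase that forms phosphoenolpyruvate (chromosome 4, 150236721 to 150248879), had 10561 and 10687 reads (fold 1.01, 0.988 to 1.04) and was the most read member. The step directly before Gapdh and the step directly after it thus had folds of 1.04 and 1.07, where Gapdh itself had 16.7.

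Summed over the pathway, the members took 47872 and 52830 reads. This is 0.258% and 0.285% of all reads, a fold of 1.11 (95% interval 1.09 to 1.12). Without Gapdh the sums were 47666 and 49391, a fold of 1.04 (1.03 to 1.05). Gapdh contributed 3233 of the 4958 reads by which the sums differed.

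Levels were compared between genes as reads per kilobase of the deposited gene length. In the control library Gapdh had 49.8 reads per kilobase, the lowest of the 10 genes, beside 268 for Pfkp, the next lowest, and 2835 for Pgk1, the highest. It stood at 2.54% of the median of the other 9 (95% counting interval 2.20 to 2.91). In the GR library it had 832 reads per kilobase, 41.9% of that median (40.5 to 43.3), and was 6th of 10, between Eno1 (1987) and Gpi1 (572). The other 9 kept one order apart from Aldoa and Tpi1, which traded places. In both libraries Pgk1, Tpi1 and Aldoa had counting intervals that overlapped with their neighbours in the order, and all other neighbours did not overlap.

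**Figure D2:**
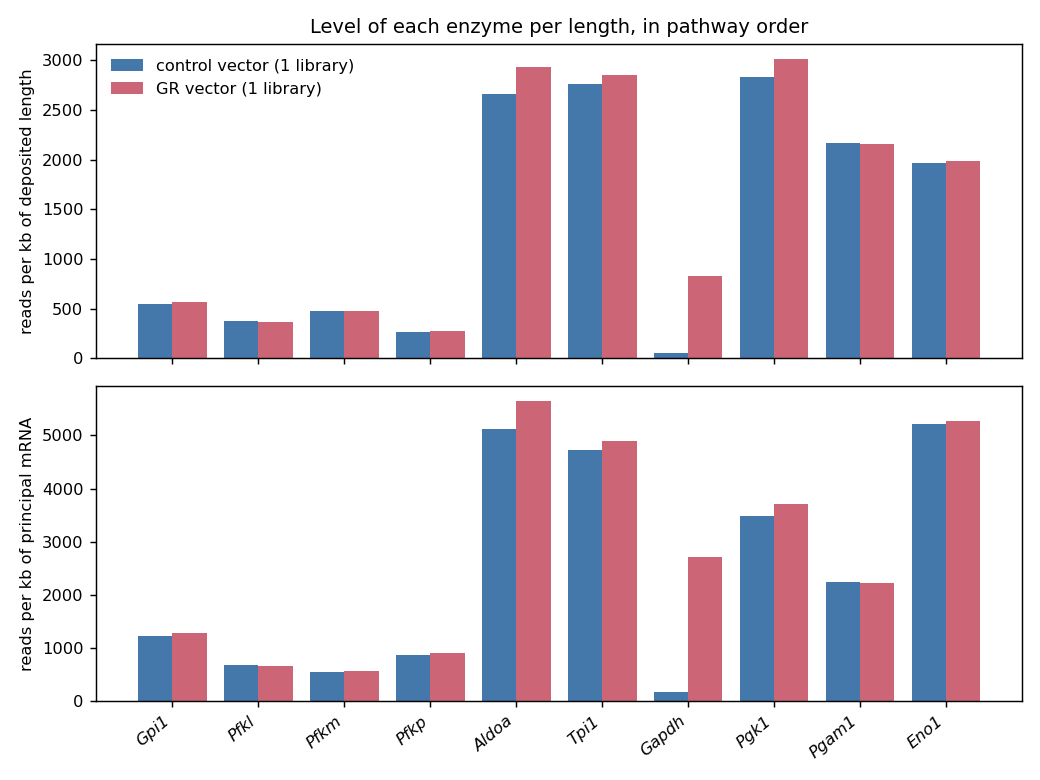
Level of each of the 10 genes in pathway order, as reads per kilobase of deposited gene length above and per kilobase of the principal mRNA below, for the control vector (blue) and the GR vector (red), 1 library each and no error bars. With the control vector the Gapdh bar is the lowest in both panels, and with the GR vector it is 6th above and 5th below.

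The level of Gapdh within a library depended on the length it was divided by. The deposited length of 4133 bases holds retained introns, and the principal mRNA has 1272 bases in 7 exons. Per kilobase of principal mRNA, Gapdh had 162 and then 2704 reads, which made it 10th and 5th of 10. That is 7.26% and 121% of the median of the other 9, and per unshared 31-mer of the mRNA it is 53.6% and 896%, so whether Gapdh lay below or above the median in the GR library turned with the length used. The fold between the libraries does not depend on length.

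Gapdh is also the member with the most copies elsewhere in the annotation. In the GENCODE M21 transcripts, 92.1% of the stretches of 31 bases (31-mers) in its principal mRNA also occur in another annotated gene, and 85.8% of the stretches of 100 bases do. For the other members the share of 31-mers ran from 0% for Pfkm and 0.838% for Pfkl to 68.3% for Pgk1 and 77.2% for Eno1. Within the coding sequence of Gapdh (bases 93 to 1094 of the mRNA) the share was 100%, with a median of 63 other genes at a 31-mer and at most 131. Before the start codon it was 19.6%. How the authors handled reads that match several places is not stated in the labels, so the counts of Gapdh and of these copies are uncertain.

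**Figure D3:**
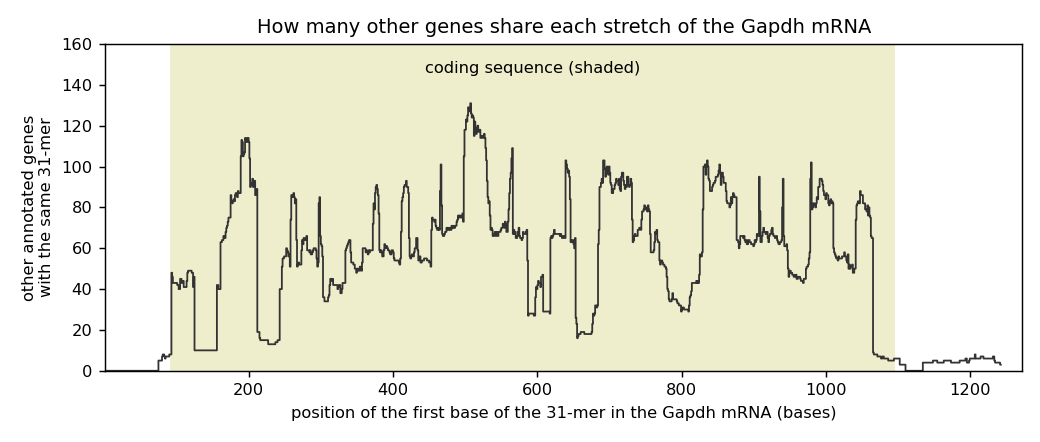
Number of other annotated genes that hold the same 31-mer, along the 1272 bases of the principal Gapdh mRNA, with the coding sequence shaded. The line stays above 0 over the whole coding sequence, reaches 131, and is at 0 over most of the bases before the start codon.

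The processed pseudogenes Gm7336, Gm5559 and Gm12070 are the copies with the most reads, and their sequence shows how little separates them from Gapdh. Over the 1002 coding bases Gm7336 differs from Gapdh at 0 bases, and Gm5559 and Gm12070 at 1 base each. The lines below give coding bases 326 to 385 from GENCODE M21, the stretch that holds both of those differences, and capitals mark the bases at which a copy and Gapdh differ.
Gapdh: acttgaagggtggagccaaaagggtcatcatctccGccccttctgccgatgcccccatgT
Gm7336: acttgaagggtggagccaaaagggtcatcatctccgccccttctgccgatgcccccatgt
Gm5559: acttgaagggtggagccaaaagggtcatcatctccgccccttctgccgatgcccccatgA
Gm12070: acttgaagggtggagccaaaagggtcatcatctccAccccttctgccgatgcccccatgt
The coding 31-mer held by 131 other genes starts at coding base 415.
Gapdh 31-mer: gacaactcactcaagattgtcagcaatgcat

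Reads on the copies did not move by the amount that Gapdh did. Gm7336 (chromosome 7, 51746647 to 51747878) had 289 and 304 reads (fold 1.05, 95% interval 0.895 to 1.24). Gm5559 (chromosome 5, 95861714 to 95862715) had 135 and 161 reads (19.6% more, fold interval 0.946 to 1.51), and Gm12070 (chromosome 11, 26786633 to 26787634) had 107 and 124 (fold 1.16, 0.890 to 1.52). In the control library Gm7336 thus had more reads than Gapdh itself, and in the GR library it had far fewer. Gm5069 had 39 and 47 reads, Gm13394 39 and 43, Gm2451 25 and 30, Gm10293 22 and 14, Gm2606 16 and 18, Gm16374 15 and 16, and Gm4654 11 and 8.

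There were 89 annotated genes with at least 25% of their own 31-mers in Gapdh, of which 55 have a row in the deposited table and 54 of these are pseudogenes. Of the 55, 28 had more reads with the GR vector, 20 had fewer and 7 had the same number, and their median over both libraries was 2.5 reads. Together they had 830 and 917 reads (fold 1.11, 95% interval 1.01 to 1.22). That is 4.03 times the reads of Gapdh in the control library and 0.267 times in the GR library. Summed with Gapdh the family had 1036 and 4356 reads, a fold of 4.22 (3.94 to 4.52). Of 330 annotated genes that share any 31-mer with Gapdh, 82 have a row in the deposited table. Among those 82 the largest loss was 65 reads, by Iffo1, where Gapdh gained 3233. The rest have no counts, and the handling of reads that match several places is not stated. A shift of reads between copies was therefore not tested.

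The copies of the other members took few reads beside their parent genes. Tpi-rs11 had 202 and 229 reads, Pgam1-ps2 55 and 73, Pgk1-rs7 27 and 25, and Eno1b, a retrotransposed enolase gene, 319 and 329. Summed with such copies, the folds were 1.04 for Tpi1, 1.01 for Pgam1, 1.07 for Pgk1 and 1.02 for Eno1. The sums left Gapdh as the 1 row past 1.2-fold.

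The genes around Gapdh on chromosome 6 did not share its difference. Of the 6 other genes with a span within 50 kb, Chd4 had 12699 and 12840 reads (fold 1.01), Nop2 1292 and 1191 (0.924), Iffo1 990 and 925 (0.937), Ncapd2 9625 and 9377 (0.977), Mrpl51 1321 and 1343 (1.02) and Vamp1 394 and 398 (1.01). Each of the 6 intervals included 1. Of all genes averaging 100 reads or more, 0.28% passed 1.5-fold in either direction, so small folds in these 6 are not particular to the place. Iffo1, on the opposite strand, overlaps the end of Gapdh by 68 bases. The labels do not state strand handling, and reads in that overlap cannot be assigned without it. Other members overlap genes on the opposite strand: Pfkp overlaps Pitrm1 by 748 bases, Pfkm overlaps Senp1 by 1156, Tpi1 overlaps Spsb2 by 34, and Gpi1 overlaps Gm26762 (7 and 6 reads) by 5482. Aldoa overlaps Fam57b by 3084 bases, and the second Aldoa row overlaps it by 8319. Pfkm also overlaps Gm26513 (11 and 13 reads) by 2489 bases on the same strand.

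The bases before the start of the Gapdh transcript are shown because the transfected factor binds DNA. The GR binds as a dimer to an inverted repeat, whose arm is AGAACA. The full repeat searched is this arm, 3 bases of any kind, and the arm's reverse complement. The 250 bases before the RefSeq start of Gapdh (GRCm38.p6, minus strand, chr6:125165774-125166023) read as follows, with the arm, which lies on the opposite strand, in capitals.
Gapdh promoter: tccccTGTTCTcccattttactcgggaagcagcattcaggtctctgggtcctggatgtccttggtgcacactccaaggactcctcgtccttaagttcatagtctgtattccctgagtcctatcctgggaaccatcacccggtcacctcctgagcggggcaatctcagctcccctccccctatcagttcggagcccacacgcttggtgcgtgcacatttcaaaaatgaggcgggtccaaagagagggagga
The arm begins 245 bases before the RefSeq start. The printed bases lie inside the deposited span of Gapdh, which on this strand begins further upstream, at 125166467. Searched on both strands of the RefSeq windows of 300 bases (250 before to 50 after a start), the full repeat occurred in 0 of the 17 windows of the 10 members and in 0.00913% of all 32851 windows. The arm, which is part of the full repeat, occurred in 5 of the 17 and in 19.0% of all windows. The members with it were Gapdh, Aldoa, Tpi1 and Pfkm. ACGTG, a form of the core that hypoxia-inducible factor binds, occurred in 7 of the 17 and in 19.6% of all windows. In the Gapdh window ACGTG lay outside the 250 bases printed. Other forms of that core were not searched. GGGCGG, the GC box that Sp1 binds, occurred in 10 of the 17 and in 35.7% of all windows, and was found for 8 of the 10 members, with no match in the windows of Gapdh and Pfkm. TATAAA occurred in 0 of the 17 and in 13.6% of all windows. A match in these letters is a description and does not show binding.

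The remaining glycolysis genes were taken from a list. Of 23 listed, 21 had a row, and 16 of these averaged 100 reads or more. None of the 16 passed 1.2-fold, a fold that 5.04% of genes of that depth passed; 7 lay above 1 and 9 below, with a median log2 fold of -0.0083. Ldha, which makes lactate from pyruvate and is normally kept low in beta cells, had 907 and 1085 reads (95% interval of the fold 1.10 to 1.31) and lay just under the line of 1.2-fold. Bpgm, a mutase of the same family as Pgam1, had 245 and 291 reads (fold 1.19, 1.00 to 1.42). Pfkfb4, which sets the level of an activator of phosphofructokinase, had the lowest fold of the 16 (252 and 219 reads, 0.872). Pkm, the pyruvate kinase that ends the pathway, had 23405 and 23115 reads (fold 0.990), and Hk1, a hexokinase that phosphorylates glucose, had 2220 and 2173 (0.982). The neuronal enolase gene Eno2 had 1758 and 1586 reads (fold 0.905, 0.845 to 0.969). Gapdhs, the sperm form of the dehydrogenase, had 66 and 72 reads (fold 1.09, 0.772 to 1.55).

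Transcripts that serve as PCR references beside Gapdh were also examined. None of the 15 passed 1.2-fold, beside 5.04% of all genes averaging 100 reads or more, a share at which a count of 0 in so short a list is not particular to it. Their median log2 fold was -0.02. Tbp had 828 and 743 reads (fold 0.900), and Hprt, with the highest fold of the 15, had 3472 and 3707 (1.07). Actb had 7578 and 6974 reads (fold 0.923, 95% interval 0.893 to 0.954), Ppia 13968 and 13943 (1.00), Tubb5 20069 and 19407 (0.970) and Eef1a1 68154 and 68307 (1.01). Gapdh, with 206 reads in the control library, was below every one of these in that library.

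**Figure D4:**
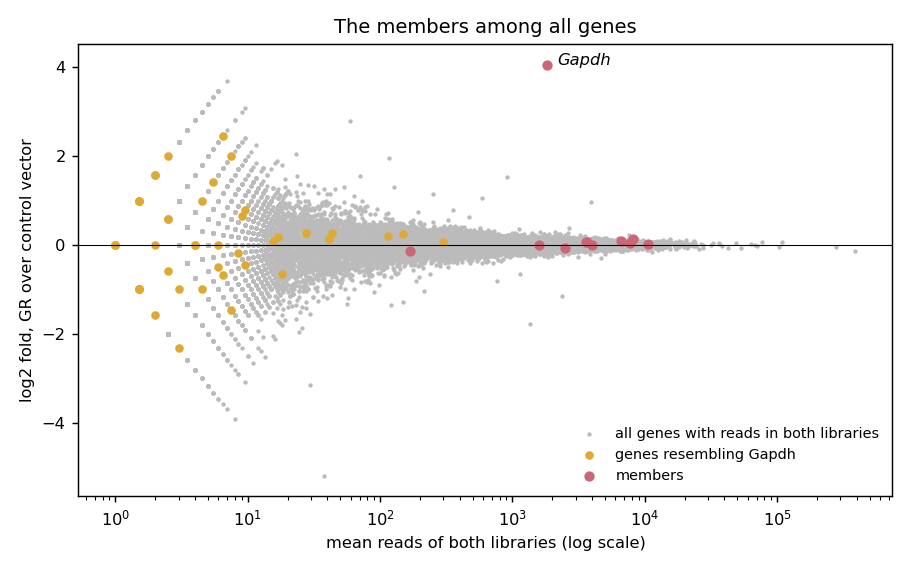
Log2 fold of reads, GR vector over control vector, against mean reads (log axis) for all genes with reads in both libraries (grey), genes with at least 25% of their 31-mers in Gapdh (yellow) and members (red), 1 library per group. Gapdh lies at 4.07, above each of the other genes averaging 1000 reads or more, and the other members lie near 0.

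No gene had a pattern close to that of Gapdh. Of 12119 genes averaging 50 reads or more, the nearest in log2 fold was the pseudogene 2810047C21Rik1 (15 and 103 reads, fold 6.89, 1.28 log2 units away). After it came 4 processed pseudogenes: Gm12411 (48 and 185 reads), Rpl30-ps10 (36 and 106), Gm10241 (468 and 1357) and Gm8116 (74 and 182). None of the 5 shares a 31-mer with Gapdh. Likeness here is over only 2 libraries, 1 value of difference per gene.

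The authors deposited an enrichment report for the GR library. It places the set for glycolysis and gluconeogenesis, with 67 genes, 21st of 307 by normalized enrichment score. Its deposited enrichment score was 0.641, its normalized score 1.03 and its FDR q 1.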

How the data were processed

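The data are 2 RNA-seq libraries. The submitters' processing notes name DESeq2 1.10.1; for the aligner, counter, strand handling and build: not given in the sources used here. The authors deposited a signal per gene and library, a scaled read count. Dividing each library's values by their smallest step gave whole reads (100% within 0.01 reads). The log2 fold changes and p-values named as from the authors' deposited table are theirs, as is the enrichment score of their report; medians of log2 folds, the plotted log2 folds and the adjusted p-values of alternative settings were computed here. edgeR 4.0.16's exact test with a preset dispersion of 0.04 on the recovered reads gave p-values within 4.45e-08 of the deposited ones and called 4 genes at an adjusted p under 0.05. The exact test was also run on data simulated with the same dispersion of 0.04, which cannot check whether that dispersion holds here.

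Folds are of reads scaled by TMM library sizes, with exact Clopper-Pearson 95% intervals; level intervals are exact Poisson. The intervals cover counting error only. Reads per kilobase use the gene length that the authors deposited. Of the deposited identifiers, 21516 occur in GENCODE M21 (GRCm38), 97.0% with the same span. 31-mers were searched in its transcripts on both strands. A copy was called where at least 25% of its own 31-mers occur in the member. With 1 library per group no test over replicates was possible, and each exact test assumes its dispersion. The members and lists were chosen with earlier results of these data known. Named were all members, all genes within 50 kb of Gapdh, up to 10 copies of it and up to 3 of each other member, the 5 genes nearest in log2 fold, and from each list the 2 largest absolute log2 folds among genes averaging 100 reads or more, the 2 most read genes and any past 1.2-fold. Pfkfb4, Eno2, Gapdhs, Actb, Hprt, Ppia, Pcx, Fbp2 and Aldoc are outside this rule and were chosen after their values were seen. Some genes of the lists are counted in the totals but not reported here by name. Promoter sequences are from RefSeq (GRCm38.p6), and all 10 members matched.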

Additional observations from a re-analysis of the deposited data

How the results depend on the processing

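No paired analysis was possible because each group has 1 library. Scaling by DESeq2 size factors or by total reads gave Gapdh folds of 16.7, and removing the GC trend gave 17.0. Summed with its copies the fold was 4.22, and summed with every gene in the deposited table that shares any 31-mer it was 2.23. Gapdh was the 1 member past 1.2-fold under both scalings, with the GC trend removed and with copies summed, and the 1 past 1.5-fold. Of 40 alternative values for the other 10 rows, 38 stayed inside the counting interval of the main value and 2 moved out of it, both with the GC trend removed: Aldoa at a fold of 1.14 and Eno1 at 1.05. The interval of Gpi1 included 1 under the other scalings.

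The level of Gapdh as a percentage of the other members' median moved most. From 2.54% and 41.9% (control and GR library) it went to 46.9% in the GR library with the longest transcript as length, to 4.53% and 73.7% against the geometric mean, to 12.3% and 51.0% with copies summed, to 7.26% and 121% per principal mRNA and to 53.6% and 896% per unshared 31-mer. Without a minimum of reads, 3 other glycolysis genes passed 1.2-fold (1 higher and 2 lower), all with a mean under 100 reads. With edgeR's exact test at a dispersion of 0.16, 0 genes passed the adjusted threshold (65 at an unadjusted p under 0.05) and Gapdh had an adjusted p of 0.368; at 0.01, 16 genes passed. The other settings gave 3 or 4 genes, and Gapdh was among them. The sums with any shared 31-mer, the GC trend for Gapdh, the principal mRNA, the unshared 31-mers, the exact test at 0.04 and the scalings for single members were chosen after seeing the data. Depth limits the second Aldoa row and the copies most.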

Other observations

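Genes of pathways that branch from glycolysis were also examined, beside the 5.04% of all genes averaging 100 reads or more that passed 1.2-fold. At that share the counts in these short lists say nothing particular about a pathway. Of 8 gluconeogenesis genes listed, 6 had a row, and 0 passed 1.2-fold. G6pc2, the glucose-6-phosphatase subunit of beta cells, had 20384 and 20699 reads (fold 1.02, 95% interval 0.999 to 1.04). Pck2 had 7644 and 7290 reads (fold 0.956), pyruvate carboxylase (Pcx) 5639 and 5663 (1.01), and Fbp1 and Fbp2 had folds of 1.06 and 1.03. Of 7 pentose phosphate genes, 0 passed 1.2-fold. Rpe, an epimerase of that pathway, had 1008 and 1170 reads (fold 1.16, 1.07 to 1.27), G6pdx 491 and 446 (0.911), Tkt 3304 and 3210 (0.974) and Taldo1 2680 and 2619 (0.980). Among 4 regulators averaging 100 reads or more, Mlxipl, the glucose-sensing factor ChREBP, was the 1 past 1.2-fold (5112 and 4203 reads, fold 0.825). At its depth such a fold was rarer: 0.288% of the 4867 genes averaging 1000 reads or more passed 1.2-fold. Hif1a had a fold of 1.04 and Txnip 0.961.

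Counted against only those 31-mers of the principal mRNA that no other annotated gene holds (98 for Gapdh and 455 for Eno1), Gapdh had 2102 and 35092 reads per 1000. On that scale Gapdh was 6th of 10 with the control vector, between Pgam1 (3922) and Gpi1 (1973), and 1st with the GR vector, above Eno1 (23488). The scale takes every counted read to come from unshared sequence, which was not tested.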
